A study of Mus musculus with 35 samples.

Results

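Hmgcs1, Idi1, Fdft1, Sqle, Lss, Cyp51 and Srebf2 were taken by name from the 55401 genes of the deposited mRNA count table and followed in CD45+ microglia of the developing and adult mouse brain. The first 6 encode enzymes that build cholesterol, and Srebf2 encodes the transcription factor that switches such enzymes on. None of the 7 is a receptor that takes up cholesterol, so uptake genes are described from a separate list of related genes. The cells came from whole brains of wild-type male and female C57BL/6 mice at postnatal day 6 (P6), postnatal day 15 (P15) and 8 weeks (8W), with 1 library per mouse and no treatment. Brains were digested to single cells and the CD45+ cells were held on an antibody-coated dish (immunopanning), a gate that CD45+ monocytes and border macrophages also pass. P6 female 6 was left out here, and 34 of the 35 mice were compared (the study also removed 1 mouse as an outlier, without naming it in its text), with 4 females and 6 males at P6, 6 females and 6 males at P15, and 6 females and 6 males at 8 weeks. All 7 genes were among the 17612 genes that passed the filter on low values (at least 0.5 CPM, the counts scaled to library size, in at least 5 mice), and each had between 68 and 10094 counts in every one of the 34 mice.

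Cells make cholesterol from acetyl-CoA by way of mevalonate, farnesyl diphosphate, squalene and lanosterol. Srebf2 encodes a precursor that is held in the endoplasmic reticulum by Scap and the Insig proteins while sterols are plentiful. When sterols run low, a pair of proteases (Mbtps1 and Mbtps2) release its active part, which enters the nucleus and raises the genes of sterol synthesis, Srebf2 itself included. Plasma lipoproteins do not cross the blood-brain barrier, so the brain makes its own cholesterol, most of it during the growth of neurons and the formation of myelin.

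Library depth ranged from 23316107 to 38965078 counts per mouse. The 5 microglial markers (Tmem119, P2ry12, Sall1, Cx3cr1 and Csf1r) had a mean level of 9.63 to 10.52 log2 CPM at P6, 10.91 to 11.99 at P15 and 11.37 to 11.83 at 8 weeks, and all 5 rose from P6 to 8 weeks. Markers of other cells were also present at every age, and none of the 30 markers of neurons, neural progenitors, astrocytes, oligodendrocyte precursors and oligodendrocytes was at 0 in all mice of an age. Among the P15 mice, males 5 and 6 had the lowest mean level of these 30 markers (4.75 and 4.58 log2 CPM) and male 1 the highest (7.09), against a P15 median of 5.99. P6 female 6, which was left out, had 7.47 for the neural and glial markers and 8.55 for the microglial markers, outside the range of the other P6 mice for both. In such bulk libraries, fewer cells of a type and less RNA per cell cannot be told apart.

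The region before the start site of 5 members is shown because the SREBP factors bind there in known sterol genes. The sequences are the 170 bases before the RefSeq start site on GRCm38.p6, written 5′ to 3′ on the strand of the gene, and Fdft1 and Sqle had no entry in the table used. For Idi1, Lss, Cyp51 and Srebf2 the GENCODE gene given below begins before that site, so part of each window lies within the annotated gene. Capitals mark every match, on either strand, to TCACCNCA (a form of the sterol regulatory element, spelled after these sequences had been seen), to CCAAT (the box bound by NF-Y) or to GGGCGG (the GC box bound by Sp factors).
Hmgcs1 (chr13:119690181-119690350, plus strand): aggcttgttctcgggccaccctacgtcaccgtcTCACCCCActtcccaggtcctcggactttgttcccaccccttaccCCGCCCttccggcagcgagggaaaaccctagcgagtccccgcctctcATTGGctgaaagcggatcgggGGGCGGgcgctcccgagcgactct
Idi1 (chr13:8885436-8885605, plus strand): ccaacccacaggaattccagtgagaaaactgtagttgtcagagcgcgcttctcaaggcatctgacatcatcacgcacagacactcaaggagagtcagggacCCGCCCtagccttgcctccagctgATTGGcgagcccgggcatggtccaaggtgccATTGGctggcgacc
Lss (chr10:76531435-76531604, plus strand): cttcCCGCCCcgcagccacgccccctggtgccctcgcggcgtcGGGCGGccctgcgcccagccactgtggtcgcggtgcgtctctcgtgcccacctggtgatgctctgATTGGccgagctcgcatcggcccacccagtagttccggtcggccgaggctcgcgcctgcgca
Cyp51 (chr5:4104698-4104867, minus strand): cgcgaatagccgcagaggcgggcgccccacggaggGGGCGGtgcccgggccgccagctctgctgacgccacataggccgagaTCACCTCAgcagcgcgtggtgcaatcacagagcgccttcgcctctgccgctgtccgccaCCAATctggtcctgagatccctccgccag
Srebf2 (chr15:82147099-82147268, plus strand): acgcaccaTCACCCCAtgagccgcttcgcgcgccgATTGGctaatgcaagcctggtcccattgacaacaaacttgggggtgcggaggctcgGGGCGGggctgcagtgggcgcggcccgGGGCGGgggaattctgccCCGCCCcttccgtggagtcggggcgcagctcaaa

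TCACCNCA began at position -137 in Hmgcs1, -88 in Cyp51 and -162 in Srebf2, counting back from -1 at the base before the start site. It was thus present in 3 of the 5 member promoters of 300 bases (250 before and 50 after the start), in 1 of 11 promoters of other sterol enzymes (Hsd17b7) and in 4.42% of all 32851 mouse promoters in the table. Because this spelling was chosen after the member sequences had been seen, their share cannot be weighed against the others. CCAAT was in 5 of 5 member promoters against 37.4% of all promoters, and GGGCGG in 5 of 5 against 35.7%. Each of these was also in 10 of the 11 promoters of other sterol enzymes. In Idi1 and Lss, the 2 remaining members with a sequence, TCACCNCA was not found in the 300 bases.

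Hmgcs1, at chr13:119690379-119708260 on the plus strand of GRCm38, encodes the synthase that makes HMG-CoA, an early step. Its level was 131, 207 and 245 CPM at P6 (lowest, median and highest of 10 mice), 59.1, 121 and 212 at P15 (12 mice) and 43.2, 74.6 and 94.7 at 8 weeks (12 mice). No 8-week mouse reached the lowest P6 mouse, while P15 overlapped with both. The highest P15 value belonged to female 2 and the 2 lowest to males 5 and 6.

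Idi1 (chr13:8885501-8892451, plus strand), whose enzyme interconverts the 5-carbon isoprene units, was the member with the fewest counts. It had 7.95, 12.2 and 20.9 CPM at P6, 3.10, 7.44 and 14.4 at P15 and 2.93, 5.11 and 6.999 at 8 weeks. Again the P6 and 8-week mice did not overlap. Its value is uncertain, since 684 bases of its transcript are identical to the pseudogene Gm13502 and fragments that fit both places may have been lost in counting.

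Fdft1 (chr14:63145150-63179578, minus strand) encodes squalene synthase, the first step that leads to sterols alone. Its levels were 31.1, 67.6 and 79.8 CPM at P6, 21.9, 38.1 and 88.9 at P15 and 24.3, 29.7 and 64.0 at 8 weeks. The ages overlapped, with P15 male 1 above every P6 mouse. A stretch of 1249 bases of Fdft1 matches the pseudogene Gm6781 at 97.4% identity, and 774 bases match a transcript of Ctsb.

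Sqle (chr15:59315077-59331192, plus strand), whose product adds oxygen to squalene, had 36.6, 72.0 and 81.5 CPM at P6, 12.6, 46.1 and 82.7 at P15 and 12.9, 19.5 and 49.1 at 8 weeks. Its spread at P15 was the widest of the members, 6.56-fold from male 6 to male 1. At 8 weeks, 11 of the 12 mice lay below the lowest P6 mouse and female 1 lay above it.

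Lss (chr10:76531588-76557138, plus strand), whose enzyme folds the squalene chain into lanosterol, had 23.1, 34.3 and 41.6 CPM at P6, 12.9, 19.6 and 31.6 at P15 and 12.8, 18.4 and 23.5 at 8 weeks. The median fell between P6 and P15 and lay close to its P15 value at 8 weeks. The 8-week mouse with the highest value, female 1, was just above the lowest P6 mouse.

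Cyp51 (chr5:4081145-4104746, minus strand) encodes the cytochrome P450 that demethylates lanosterol. Levels were 63.1, 98.9975 and 121 CPM at P6, 30.2, 62.4 and 92.2 at P15 and 24.5, 27.5 and 48.0 at 8 weeks. Between the highest 8-week mouse and the lowest P6 mouse there was a gap with no mouse of either age. Age accounted for 80.3% of the variance of its log2 CPM over the 34 mice, the highest share of the 7 members, against a median of 45.1% over all genes tested.

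Srebf2 (chr15:82147181-82205379, plus strand) had 151, 217 and 251 CPM at P6, 112, 163 and 341 at P15 and 86.6, 107 and 168 at 8 weeks. P15 male 1 was the highest of all 34 mice, and the next P15 mouse, female 1, had 187 CPM. Only 1 of the 12 8-week mice, female 1, lay above the lowest P6 mouse.

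**Figure D1:**
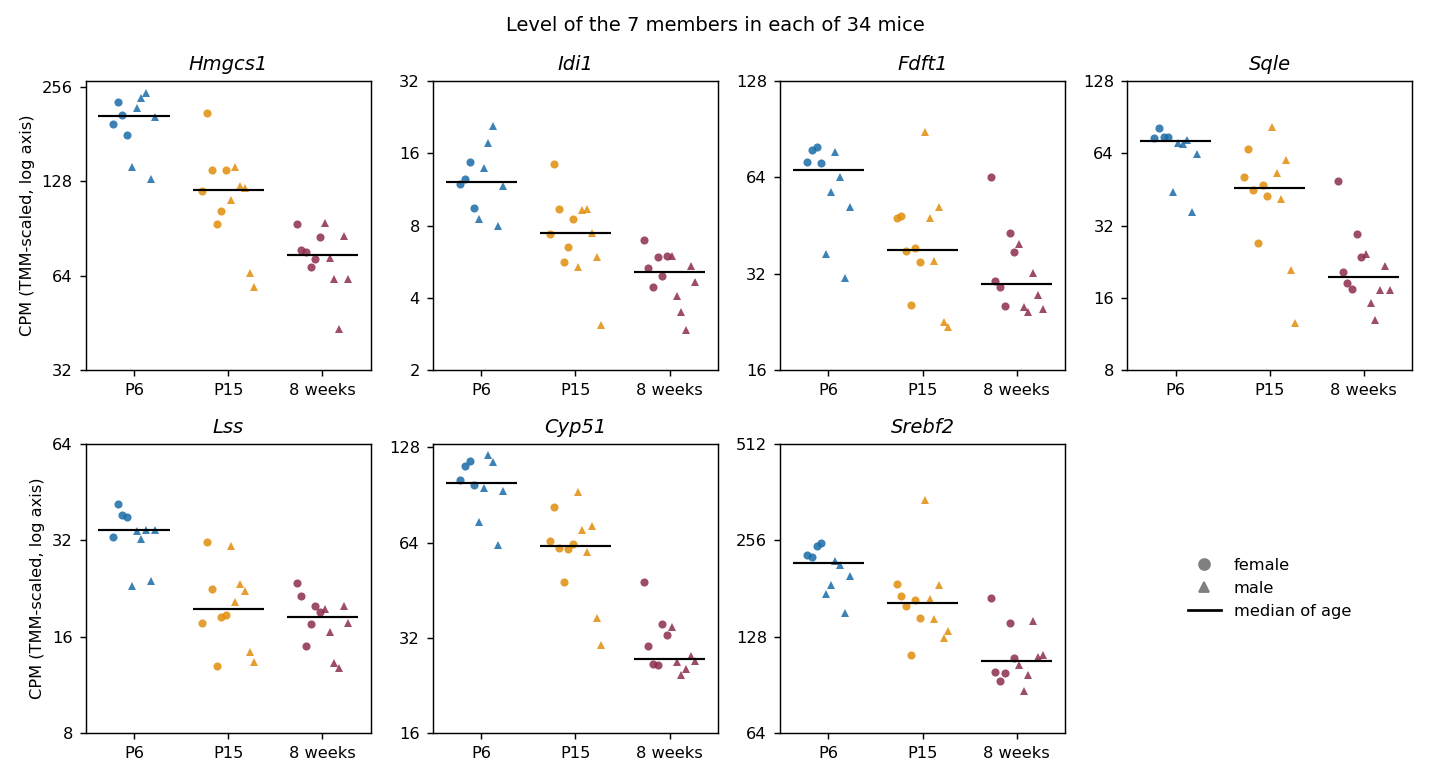
Level of each member in 34 mice, as TMM-scaled CPM on a log2 axis, by age (circles, females, triangles, males, line, median of the age). Hmgcs1, Idi1 and Cyp51 show no overlap between P6 and 8 weeks, and P15 male 6 is the lowest P15 triangle in every panel except Srebf2, where male 5 is.

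Divided by exon length, the members were ordered Hmgcs1 (43.4 ± 8.39 RPKM, SD, n = 10), Srebf2, Cyp51, Fdft1, Sqle, Idi1 and Lss (3.09 ± 0.546) at P6. The order was the same at P15. At 8 weeks Fdft1 (7.94 ± 2.704 RPKM, n = 12) stood above Cyp51 (6.89 ± 1.49) in 10 of 12 mice, where Cyp51 had been above Fdft1 in 10 of 10 mice at P6. Lss likewise stood above Idi1 in 11 of 12 mice at 8 weeks (1.67 ± 0.298 against 1.43 ± 0.333 RPKM), where Idi1 had been above Lss in 8 of 10 mice at P6 and 10 of 12 at P15. Neighbours in the order mostly overlapped. At P6, Sqle and Idi1 were the only neighbours whose ranges did not, and at 8 weeks Sqle and Lss. Hmgcs1 and Srebf2 could not be ranked at P15, where Hmgcs1 was higher in 7 of 12 mice, or at 8 weeks, where it was higher in 8 of 12 (16.2 ± 3.18 against 15.8 ± 3.41 RPKM). The lengths are those of all annotated exons joined, which lowers the RPKM of genes with long rare exons. As a percentile of the mean level over all genes tested, Hmgcs1 moved from 95.1 at P6 to 83.7 at 8 weeks and Cyp51 from 88.2 to 66, while Srebf2 moved from 95.6 to 89.7.

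P15 was compared with P6, the interval in which the brain begins to myelinate. All 7 members fell, by 0.33 to 0.76 on the log2 scale, under the edgeR quasi-likelihood test with Benjamini-Hochberg adjustment over all 17612 genes (FDR below 0.05). Hmgcs1 had the largest change (log2 fold change -0.76 ± 0.154, SE, FDR 8.67e-05), followed by Idi1 (-0.74 ± 0.185, FDR 0.000948), Lss (-0.72 ± 0.136, FDR 3.21e-05) and Cyp51 (-0.69 ± 0.145, FDR 0.000133). Fdft1 changed by -0.60 ± 0.195 (FDR 0.00889). Of all genes tested, 31.4% were called lower and 30.4% higher. The median change was -0.69 over the members and -0.01 over all genes. No member passed the test for a change beyond 2-fold (glmTreat), which 4.85% of all genes passed as lower. In none of the 7 did the P15 mice all lie below the P6 mice, a pattern found in 7.72% of all genes.

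The changes of Sqle (-0.56 ± 0.223, FDR 0.0306) and Srebf2 (-0.33 ± 0.136, FDR 0.0358) between P6 and P15 lost the call when single mice were left out. Sqle gave an adjusted p of 0.0517 without P15 female 4, 0.0652 without P15 male 5 and 0.0513 without P15 male 6 in the same edgeR test. Srebf2 gave between 0.0562 and 0.0821 without P15 female 4, P15 female 6 or P15 male 2, 3, 5 or 6. With P15 males 1, 5 and 6 left out together, all 7 members were lower at P15 (log2 fold changes of -0.70 to -0.42), Srebf2 with -0.42 (FDR 0.00189) and Sqle with -0.49 (FDR 0.0223).

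From P15 to 8 weeks, 5 of the 7 members fell further. Sqle (-1.07 ± 0.215, FDR 0.000164) and Cyp51 (-1.03 ± 0.139, FDR 5.31e-07) fell to 0.478 and 0.490 of their P15 level, and Hmgcs1 (-0.67 ± 0.146, FDR 0.000437), Idi1 (-0.62 ± 0.178, FDR 0.00509) and Srebf2 (-0.58 ± 0.129, FDR 0.000500) fell less in the edgeR test. The values for the other two were -0.32 ± 0.186 for Fdft1 (FDR 0.148) and -0.19 ± 0.130 for Lss (FDR 0.220). Fdft1 passed the threshold (-0.43, FDR 0.0479) only when 8-week female 1 was left out, out of the 34 mice left out in turn. Over all genes, 23.9% were called lower and 24% higher, and the median change was -0.62 for the members and 0.02 for all genes. The 2-fold test was passed by 0 members and by 3.07% of all genes as lower, and the ranges of the mice separated as lower in 0 members and in 1.72% of all genes.

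Over the whole interval from P6 to 8 weeks, all 7 members fell, against 36.6% of all genes called lower and 37.8% called higher. Cyp51 fell most, to 0.304 of its P6 level (log2 fold change -1.72 ± 0.147, FDR 4.94e-12), then Sqle to 0.325 (-1.62 ± 0.225, FDR 1.34e-07), Hmgcs1 to 0.373 (-1.42 ± 0.155, FDR 1.03e-09) and Idi1 to 0.390 (-1.36 ± 0.187, FDR 1.10e-07). Fdft1 (-0.92 ± 0.196, FDR 9.61e-05), Lss (-0.92 ± 0.136, FDR 4.54e-07) and Srebf2 (-0.91 ± 0.136, FDR 4.80e-07) changed to a lesser extent. The median change was -1.36 over the members and 0.04 over all genes. Cyp51, Hmgcs1, Sqle and Idi1 passed the 2-fold test, as did 12.4% of all genes as lower, and Hmgcs1, Idi1 and Cyp51 had all 8-week mice below all P6 mice, as had 14.8% of all genes. The call of Idi1 beyond 2-fold was lost (FDR 0.0518 to 0.0637) without P6 female 3, P6 male 4 or 8-week male 4, with the replicate block (FDR 0.0708), with limma and with DESeq2. With either marker covariate described below, no member passed the 2-fold test.

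Marker levels of other cells differed between ages, some in the direction of the members and some against it. Dcx, Sox11, Eomes, Dlx2, Neurod1, Tubb2b and Gap43, the 7 genes used to mark neural progenitors and young neurons, all fell at each step, with a mean level of 5.30 to 7.27 log2 CPM at P6, 2.46 to 5.72 at P15 and 1.23 to 2.98 at 8 weeks. The 30 neural and glial markers had a mean level of 5.06 to 6.26 at P6, 4.58 to 7.09 at P15 and a median of 4.49 (highest 5.59) at 8 weeks, and 17 of them fell and 11 rose from P6 to 8 weeks. Those of oligodendrocyte precursors (5 of 5) and neurons (4 of 6) mostly fell, with medians of -1.75 and -1.26. Those of oligodendrocytes (6 of 6, median 1.83) and astrocytes (4 of 6, median 0.88) mostly rose while the members fell, and from P6 to P15 the medians of these were 2.74 and 1.17. From P15 to 8 weeks, in contrast, 21 of the 30 markers fell and 0 rose (median -1.17), with 5 of 6 oligodendrocyte markers (median -0.93), 5 of 6 neuronal markers (median -1.29) and 1 of 6 astrocyte markers among them, so that most moved in the direction of the members in that step. Markers of erythrocytes rose from P6 to P15 (5 of 5, median 0.96) and fell from P15 to 8 weeks (5 of 5, median -1.43), and those of border macrophages and monocytes had 4 higher and 3 lower in the first step and 2 higher and 6 lower in the second. The 6 markers of dividing cells (among them Mki67 and Top2a) fell from 6.56 to 6.99 at P6 to 1.12 to 1.88 at 8 weeks. The 8 genes of the response to tissue dissociation ranged from 8.47 to 9.41 at P6 and from 9.76 to 10.88 at 8 weeks, with 6 of 8 higher.

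After the mean of each age and sex group had been subtracted, the members correlated with the progenitor markers across the 34 mice with r between 0.65 (Srebf2) and 0.89 (Cyp51), given as a description. These correlations were between 0.56 and 0.85 without the 2 mice farthest from the median, and Spearman's rho lay between 0.56 and 0.84. The astrocyte markers, whose level was higher after P6, were about as close, with r between 0.53 (Idi1) and 0.92 (Sqle). Neuronal markers gave 0.53 to 0.80, those of oligodendrocyte precursors 0.31 to 0.81 and those of oligodendrocytes 0.15 to 0.54. With the 5 microglial markers, r lay between -0.85 (Cyp51) and -0.66 (Idi1). The values share libraries and their scaling, so that a library rich in one kind of RNA is poorer in the other. Within single ages, r with the progenitor markers was 0.72 to 0.94 at P6, 0.68 to 0.94 at P15 and 0.25 to 0.69 at 8 weeks, and with the astrocyte markers 0.22 to 0.64, 0.62 to 0.99 and 0.62 to 0.95. With the markers of dividing cells, r lay between -0.14 and 0.18.

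The age changes were refitted with marker levels as a covariate. With the mean of the 30 neural and glial markers in the fit, all 7 members were called lower at P15 than at P6, by 0.37 to 0.79 on the log2 scale. Of the 17612 genes, 6195 were called lower and 5614 higher in that comparison. The marker level had a median of 5.99 at both ages, so this covariate could hardly change the comparison. It averages lists that moved in opposite directions from P6 to P15 (median -1.80 for progenitors, 2.74 for oligodendrocytes and 1.17 for astrocytes). From P6 to 8 weeks, 6 of 7 members remained lower, Cyp51 with -1.03 (FDR 1.23e-10), Hmgcs1 with -0.78 (FDR 2.69e-05) and Idi1 with -0.78 (FDR 0.00301), while Fdft1 had -0.01 (FDR 0.938) and no member passed the 2-fold test. Of all genes, 5547 were called lower and 5896 higher in that comparison. From P15 to 8 weeks only Cyp51 was called lower (-0.29, FDR 0.0176), and Fdft1 (0.66, FDR 0.000163) and Lss (0.38, FDR 0.0261) were called higher, where 3168 of the 17612 genes were called lower and 3252 higher. With the 7 progenitor markers as the covariate, chosen after the data were seen, 0 members were called lower in any comparison and 2 of 7 higher in each. In these fits 4175, 3505 and 3962 of the 17612 genes were called lower and 4438, 3468 and 4191 higher (P15 against P6, 8 weeks against P15 and 8 weeks against P6), so that the 2 of 7 are near the share of all genes. From P6 to 8 weeks Cyp51 then had 0.13 and Hmgcs1 0.42 (FDR 0.171), and Fdft1 (1.48, FDR 6.48e-05) and Sqle (1.16, FDR 0.00496) were called higher. Since the progenitor level at P6 does not overlap with that at 8 weeks, it and age cannot be told apart in that comparison.

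**Figure D2:**
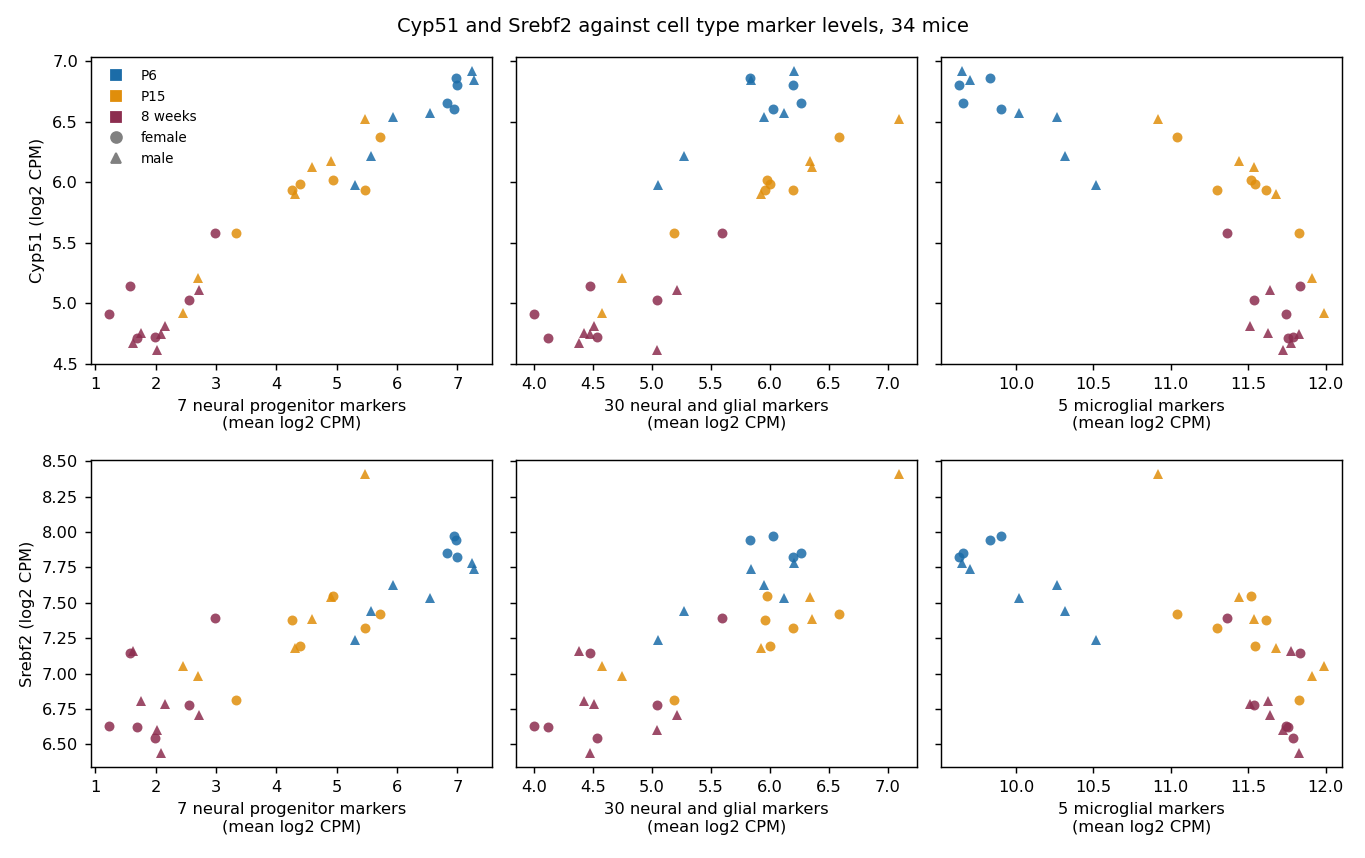
Cyp51 (top) and Srebf2 (bottom) in log2 CPM against the mean level of 7 neural progenitor markers, 30 neural and glial markers and 5 microglial markers in 34 mice (colour, age, circles, females, triangles, males). Cyp51 is higher where the progenitor markers are higher, and P15 male 1 is the highest point for Srebf2.

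Each enzyme was also set against Srebf2 within the same mouse, a ratio that no scaling of the libraries changes and that was added after the data were seen. The ratio was not refitted with marker levels, so the part of other cells in it was not tested. From P6 to 8 weeks the log2 ratio dropped by 0.80 for Cyp51 (from -1.10 ± 0.17 to -1.90 ± 0.23, SD), by 0.73 for Sqle (from -1.68 ± 0.21 to -2.41 ± 0.35), by 0.52 for Hmgcs1 (from -0.09 ± 0.24 to -0.61 ± 0.44) and by 0.44 for Idi1 (from -4.06 ± 0.39 to -4.50 ± 0.42). The two-sided permutation test with 100000 draws gave p values adjusted over the 18 comparisons (6 enzymes, 3 pairs of ages) of 0.00018, 0.00018, 0.00598 and 0.0342. For Cyp51 the unadjusted p was 1e-05, the smallest these draws can give. Fdft1 (0.02, adjusted permutation p = 0.966) and Lss (0.01, adjusted permutation p = 0.966) had ratios at 8 weeks that differed from P6 by less than the spread between mice.

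The steps between neighbouring ages were as follows, and no test compared 1 enzyme with another. From P6 to P15 the ratio dropped by 0.36 for Cyp51 (adjusted permutation p = 0.00732), and the differences of -0.30 for Sqle (adjusted permutation p = 0.121) and -0.43 for Idi1 (adjusted permutation p = 0.115) did not pass. The ratio of Lss dropped by 0.39 from P6 to P15 (adjusted permutation p = 0.00724) and was 0.40 higher at 8 weeks than at P15 (adjusted permutation p = 0.0159). That of Fdft1 dropped by 0.27 and then was 0.28 higher (adjusted permutation p = 0.0386 and 0.0276). Without P15 males 1, 5 and 6 the later difference was 0.31 for Lss (adjusted permutation p = 0.0761) and 0.20 for Fdft1 (adjusted permutation p = 0.106), the early difference of Fdft1 was -0.18 (adjusted permutation p = 0.130) and that of Hmgcs1 moved from -0.45 (adjusted permutation p = 0.0377) to -0.21 (adjusted permutation p = 0.172). Without these males the early differences of Cyp51 and Lss were -0.21 and -0.30 (adjusted permutation p = 0.0286 for each). Those of Sqle and Idi1 were -0.07 and -0.17 (adjusted permutation p = 0.486 and 0.401). From P15 to 8 weeks the ratio dropped by 0.44 for Cyp51 (adjusted permutation p = 0.00598) and by 0.42 for Sqle (adjusted permutation p = 0.046), while the difference was -0.08 for Hmgcs1 (adjusted permutation p = 0.845) and -0.01 for Idi1 (adjusted permutation p = 0.966). Without the same 3 P15 males these values were -0.31 for Hmgcs1 (adjusted permutation p = 0.13), -0.27 for Idi1 (adjusted permutation p = 0.197), -0.65 for Sqle (adjusted permutation p = 0.00036) and -0.59 for Cyp51 (adjusted permutation p = 9e-05).

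**Figure D3:**
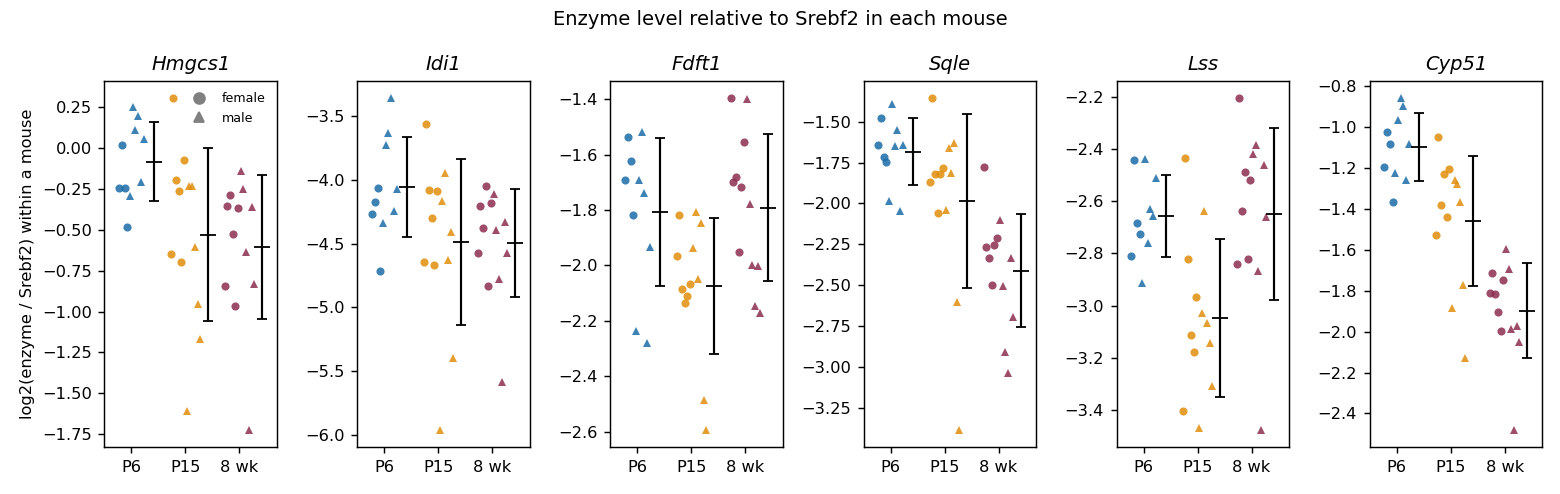
Log2 ratio of each enzyme to Srebf2 in each of 34 mice by age (circles, females, triangles, males, bars, mean and SD of the age). The means of Cyp51, Sqle, Hmgcs1 and Idi1 are lower at each later age, while those of Fdft1 and Lss are lowest at P15 and at 8 weeks lie within 0.02 of P6.

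The rest of the pathway was read from a list of 12 other sterol enzymes. From P6 to 8 weeks 9 of them fell, 0 rose and 3 did not pass the test, with a median of -0.64, against 36.6% of all genes lower, 37.8% higher and a median of 0.04. Placed in the order of the pathway together with the members, the 11 enzymes up to Cyp51 all fell (median -1.37, from -1.82 to -0.86). Acat2, which makes acetoacetyl-CoA, fell most (-1.82 ± 0.154, FDR 3.76e-12), from 43.0 ± 10.4 CPM at P6 to 12.4 ± 3.28 at 8 weeks, and Mvd, the decarboxylase that yields isoprene units, fell by 1.40 (FDR 8.95e-09). Fdps, which makes farnesyl diphosphate, fell by 1.37 (FDR 3.99e-08), but it had only 6.68 CPM at P6 and shares exons with Gm43738. Acat2 matches its neighbour Acat3 over 1477 bases at 97.7% identity, so its counts may be incomplete.

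Of the 7 listed enzymes that follow Cyp51, 4 fell, 0 rose and 3 did not pass the test from P6 to 8 weeks (median -0.34, from -0.71 to 0.31), beside the same 36.6% of all genes called lower. Msmo1, the methyl sterol oxidase that acts after Cyp51, had 72.8 CPM as its median at P6, 97.3 at P15 and 81.5 at 8 weeks. Its transcripts share stretches of at most 203 bases, at 95% identity or more, with 62 other genes, so its counts are uncertain. It rose to P15 (0.47 ± 0.162, FDR 0.0130) and at 8 weeks gave 0.31 ± 0.162 against P6 (FDR 0.0856). Ebp (0.20, FDR 0.137) and Sc5d (0.18, FDR 0.112) likewise did not pass the test. At P15 against P6, 10 of the 11 early enzymes fell and 0 of the 7 later ones, of which 2 rose, beside 31.4% of all genes lower and 30.4% higher, so the 2 of 7 are near the share of all genes. The difference between early and later enzymes was noticed in the data and was not tested. Msmo1 still tracked the members among mice of the same group, with r = 0.88 to their mean profile after group means were subtracted.

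**Figure D4:**
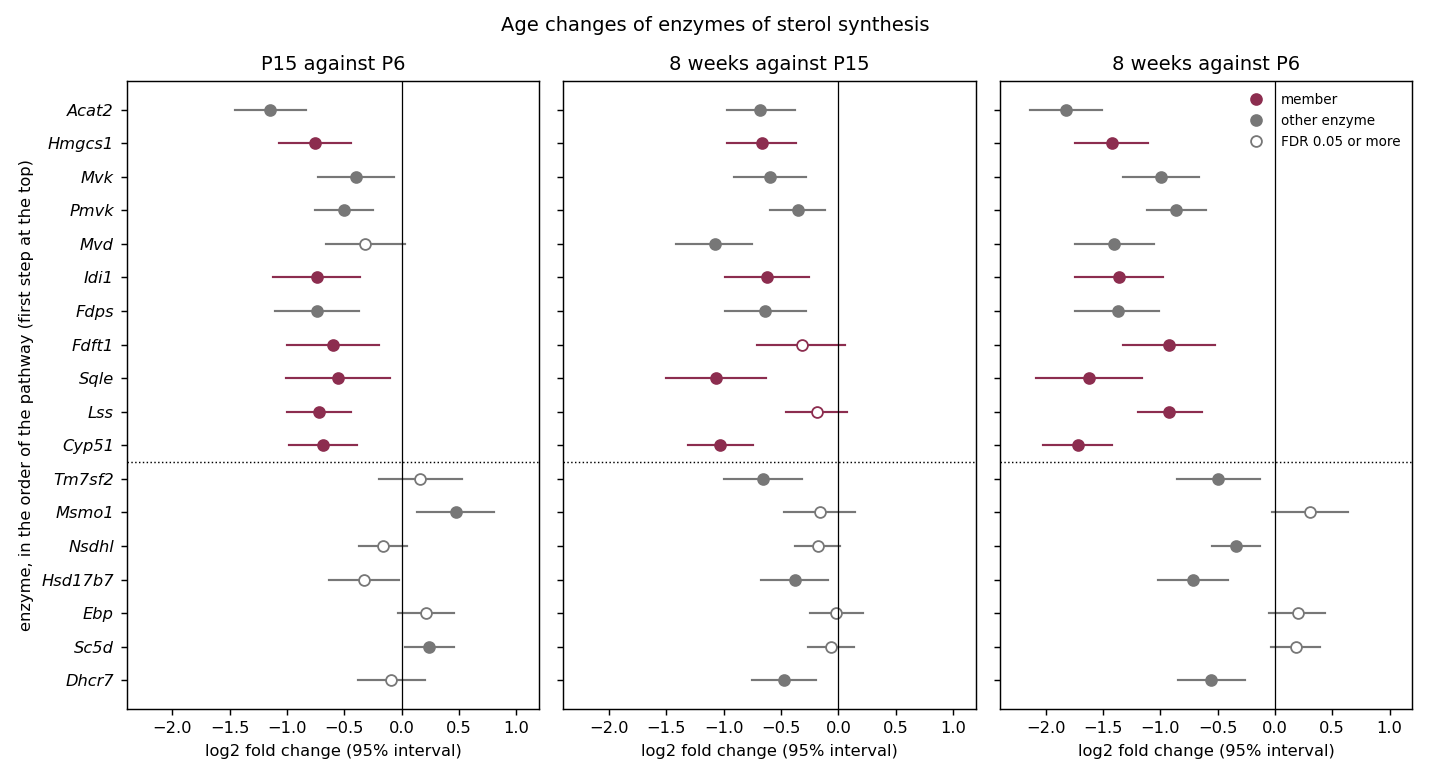
Log2 fold change with its 95% interval for 18 enzymes of sterol synthesis, first step at the top, in 3 comparisons of ages (red, members, grey, other enzymes, open, FDR of 0.05 or more). The points above the dotted line, up to Cyp51, lie left of 0 in all 3 panels, while those after Cyp51 lie around 0 at P15 against P6.

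Of 6 genes, Srebf1 and 5 that control the processing of the SREBP precursors, 3 rose and 0 fell from P6 to 8 weeks (median 0.16), where 37.8% of all genes rose and 36.6% fell (median 0.04). From P15 to 8 weeks 2 rose and 1 fell, near the 24% and 23.9% of all genes. Insig2, which retains the precursor in the endoplasmic reticulum, rose most (0.82 ± 0.0712, FDR 7.35e-12), from 15.2 to 21.7 CPM over the P6 mice to 25.6 to 35.3 over the 8-week mice, with no overlap. Mbtps2 rose by 0.44 (FDR 0.00836) and Scap by 0.23 (FDR 0.0317). Insig1, itself a known target of the SREBP factors, had 140.3 ± 25.9 CPM at P6 and 116 ± 26.7 at 8 weeks (-0.28 ± 0.139, FDR 0.0723), and from P15, with 155 ± 40.7 CPM, to 8 weeks it fell by 0.41 (FDR 0.012). Srebf1, which encodes the SREBP of fatty acid synthesis, had 113 ± 10.4 and 123 ± 36.6 CPM (0.10 ± 0.147, FDR 0.551), where Srebf2 fell.

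Of 9 genes of lipoprotein uptake and lysosomal release, 4 fell, 1 rose and 4 did not pass the test from P6 to 8 weeks (median -0.10). Of all genes, 36.6% fell and 37.8% rose (median 0.04), so the share of lower genes was near that of all genes. Stard4, a cytosolic carrier of sterols, fell most (-1.92 ± 0.125, FDR 7.23e-15), from a P6 range of 22.993 to 42.2 CPM to 6.53 to 10.6 at 8 weeks. Lrp8, a lipoprotein and reelin receptor, fell by 1.81 (FDR 1.08e-08), Vldlr, its relative, by 1.40 (FDR 5.18e-06), and Scarb1, the receptor for HDL, by 1.04 (FDR 5.51e-10). Npc1, which exports cholesterol from lysosomes, rose by 0.73 (FDR 1.19e-08), from 160.7 to 256 CPM at P6 to 275 to 383 at 8 weeks. Lrp1, a large receptor for lipoproteins and other ligands, had 1985 ± 419 CPM at P6, 2647 ± 472 at P15 and 1967 ± 351 at 8 weeks, a rise to P15 (FDR 0.00213) and a fall from there (FDR 0.00209).

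Fatty acid genes that SREBP factors also control were split. From P6 to 8 weeks 5 of 8 fell, 1 rose and 2 did not pass the test (median -0.72), against 36.6% of all genes lower and 37.8% higher (median 0.04). Elovl6, which lengthens fatty acids, fell by 1.60 (FDR 2.28e-06), Fasn, the fatty acid synthase, by 1.45 (FDR 8.76e-08), and Acaca, which makes malonyl-CoA, by 1.37 (FDR 3.40e-12). Acaca holds 6118 bases that match the pseudogene Gm5182. Scd1, a desaturase, rose by 0.71 (FDR 0.000975) while its close copy Scd2 fell by 0.60 (FDR 0.000945), and the 2 share 623 bases at 95.5% identity. Of 6 genes of the other isoprenoid branches, 2 rose (Coq2 by 0.48, FDR 8.05e-09, and Ggps1 by 0.42, FDR 0.000582), 2 fell and 2 did not pass the test (median 0.02), shares near those of all genes. Coq2 acts in the synthesis of ubiquinone and Ggps1 makes the lipid used to prenylate proteins.

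**Figure D5:**
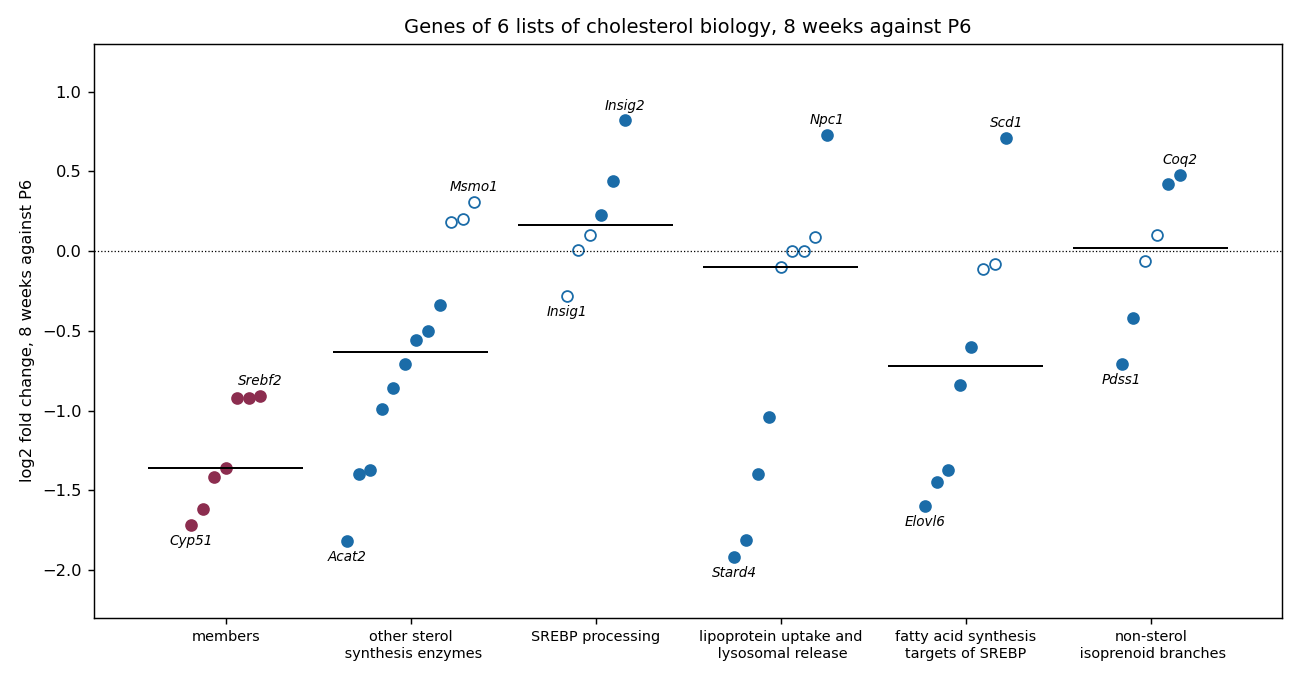
Log2 fold change of each gene of 6 lists at 8 weeks against P6 (line, median of the list, open points, FDR of 0.05 or more, names, lowest and highest gene of each list). All 7 members lie between -1.72 and -0.91, while the lists of SREBP processing and of uptake include genes on both sides of 0.

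Males and females were compared at each age. No member differed between the sexes at P6, P15 or 8 weeks, with edgeR FDR values from 0.316 to 1 and 0 of 7 members at an unadjusted p under 0.05 at any age. The share of all genes that differed by sex was 0.0511% at P6, 0.0681% in the P15 mice and 0.114% at 8 weeks. The groups of 4 to 6 mice leave wide intervals. Sqle at 8 weeks had 26.4 ± 11.9 CPM in 6 females and 18.1 ± 4.21 in 6 males, a log2 difference of -0.54 with a 95% interval from -1.16 to 0.08. At P6, Srebf2 had 239 ± 11.9 CPM in 4 females and 190.4 ± 25.7 in 6 males, a difference of -0.33 (interval -0.74 to 0.09), and Fdft1 a difference of -0.50 (interval -1.10 to 0.09). No member showed an interaction of sex with age, with FDR values from 0.251 upwards and 0 members at an unadjusted p under 0.05, and 0% of all genes did so in any of the 3 pairs of ages in the edgeR test. At an unadjusted p under 0.05 there were 3593 genes for P15 against P6, 601 for 8 weeks against P15 and 898 for 8 weeks against P6, and DESeq2 called 87 lower and 58 higher, then 2 and 0 genes. DESeq2 called 0 members for either question.

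The members varied together among mice of the same age and sex. Over the 21 pairs of members, r of the deviations from the group means across 34 mice had a median of 0.76. Sqle and Cyp51 were closest (0.97), then Fdft1 and Cyp51 (0.95) and Fdft1 and Sqle (0.93). Hmgcs1 and Idi1 (0.89), the early enzymes, were close to each other and least like Srebf2 (0.33 and 0.23). P15 male 1 shows the split: among the 12 P15 mice it ranked first for Fdft1, Sqle, Cyp51 and Srebf2 but eighth for Hmgcs1 and eleventh for Idi1. P15 male 6 ranked last for Hmgcs1, Idi1, Fdft1, Sqle and Cyp51, and 8-week female 1 ranked first of its age for every member except Hmgcs1, where it was second. The P6 mice with the lowest values were males 1 and 5, which held the last 2 ranks for all 7 members and had neural and glial marker levels of 5.28 and 5.06 log2 CPM, the 2 lowest of that age.

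Among all other genes reported here, those whose log2 CPM followed the mean profile of the members most closely over the 34 mice were Msantd3 (r = 0.977), Cttn, Lrp3, Pfn2, Gpr173, Dbn1, Dclk2, Elovl4, Ppp2r2b and Inka2 (r = 0.964). Dbn1, for example, had 211 CPM at P6, 64.0 at P15 and 17.2 at 8 weeks on average. After group means were subtracted, the 10 closest were Fhl1 (r = 0.971), Cdh2, Wwc1, 4930402H24Rik, Pou3f3, Gnao1, Scg3, Elovl4, Dlg5 and Wnk2 (r = 0.948). Elovl4, which lengthens very long fatty acids, was in both lists. Of the other pathway genes, Hsd17b7 (r = 0.92), Fads2 (0.89), Msmo1 (0.88) and Lrp8 (0.88) were closest by this second measure, and Lipa, the lysosomal lipase, had r = -0.86.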

How the data were processed

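mRNA was measured in CD45+ microglia of 35 mice, and the miRNA data of the study were not analysed here. The authors deposited raw fragment counts per gene, made with STAR and featureCounts (reverse-stranded, paired) on GRCm38/mm10. The release of the gene annotation is not given in the sources used here. Fragments that fit several places are dropped by the counter's default, which affects genes with near-identical copies.

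The tests ran under edgeR 4.0.16 (R 4.3.3). DESeq2 1.42.0 and limma 3.58.1 served as alternatives. The permutation tests also ran in R, and Python 3.11.15 was used for annotation and figures. Of 55401 identifiers, 55141 were named from GENCODE M21, a copy that may differ from the authors' annotation. Its coordinates, lengths and transcripts (BLAST 2.17.0, at least 100 bases at 95% identity for near copies) were used, and promoters came from RefSeq on GRCm38.p6. The filter asked for 0.5 CPM or more in 5 mice or more, and libraries were scaled by TMM. The quasi-likelihood model (glmQLFit, robust) had 6 group means, 1 per age and sex. "Fell", "rose" and "called" mean an FDR below 0.05 over all 17612 genes, and a change beyond 2-fold was tested with glmTreat. Log2 CPM used a prior count of 2. Intervals of 95% come from the SE and 28 residual degrees of freedom. A pathway list is given by its counts and median beside those of all genes, with no test of the list.

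The members and gene lists were chosen with earlier results of these data known. Named genes are the members, the genes of 6 pathway lists, and the 10 genes most like the members on each of 2 measures. Some genes of the pathway and marker lists are not reported here, and counts and means leave them out. P6 female 6 was left out. The study removed 1 outlier by multidimensional scaling, and its text does not name the mouse. Alternatives covered samples, scaling, tool, filter, groups in the fit, the replicate block, marker covariates and each mouse left out in turn. The script for the fit was tested on simulated data. A level of 3 counts was 0.077 to 0.129 CPM, and such floors cover counting error only, since PCR copies cannot be told from molecules. Of the 85 pairs of mice within groups none was a copy, the lowest chi-square per gene being 11.8. The labels number the mice, but same-numbered mice are different animals. No batch is named in the labels.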

Additional observations from a re-analysis of the deposited data

Results flagged for a closer look

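In 42 groups (7 members in 6 age and sex groups), 1 sample stood far from the others by Dixon's 95% criterion in 3, where chance flags about 1 group in 20. Srebf2 in P15 male 1 had 341 CPM and the next of the 6 P15 males 186, a gap of 0.724 of the group's range, and this mouse also had the highest neural and glial marker level of its age. Sqle in P6 female 2 had 81.5 CPM and the next of 4 females 74.9. Cyp51 in 8-week male 1 had 34.5 CPM and the next of 6 males 28.1.

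P6 female 6, which entered only the alternative with all 35 mice, stood above all 10 other P6 mice for 6 members when the 35 mice were scaled together. It had 408 CPM for Hmgcs1 (highest other P6 mouse 249), 98.1 for Fdft1 (79.7), 134 for Sqle (83.0), 66.4 for Lss (42.4), 166 for Cyp51 (122) and 312 for Srebf2 (257). Its Idi1 level of 18.0 CPM lay within the range of the others, 7.86 to 21.1. The neural and glial marker level of this library was 7.47 log2 CPM against at most 6.26 in the other P6 mice, and its microglial marker level was 8.55 against at least 9.63. The part of these markers in its member levels was not tested.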

How the results depend on the processing

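Under the 11 alternatives other than the marker covariates, all 231 log2 fold changes of the 7 members kept their direction, as did all 714 with 1 of the 34 mice left out, and each count of members changed or past 2-fold stayed within 1.5 times its value. The lowest and highest counts with 1 mouse left out were 5 and 7 of 7 changed for P15 against P6, 5 and 6 for 8 weeks against P15, 7 and 7 for 8 weeks against P6, and 3 and 4 past 2-fold for 8 weeks against P6. Counts for P15 against P6 were 6 with no filter (Sqle -0.56, FDR 0.0593) and with age without sex (Srebf2 -0.30, FDR 0.0569), and 5 with only the groups compared (Sqle FDR 0.0528, Srebf2 FDR 0.0716). In these fits, in the same order, 5955 of 35496, 5448 of 17612 and 5161 of 16962 genes were called lower, and 5607, 5277 and 5205 higher. Scaling by library size moved the median of all genes to -0.140 for P15 against P6 and -0.103 for 8 weeks against P6, where the members' medians were -0.80 and -1.50. With the replicate block, 7, 5 and 7 members were called lower in the 3 comparisons of ages. Of the 17612 genes, 5595, 4146 and 6449 were called lower and 5187, 4352 and 6580 higher. In that fit 3 members in place of 4 passed 2-fold from P6 to 8 weeks. The deviations of same-numbered mice had a median r of 0.03 over 80 pairs, 27 of them above 0.1. Mice with different numbers had a median r of -0.01 over 400 pairs, 118 of them above 0.1. Whether same-numbered mice shared a litter or a day of work was not tested.

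The marker covariates changed the results, and the cause was not tested. With the 30 neural and glial markers, 3 members were called for 8 weeks against P15 (1 lower, 2 higher) and 0 past 2-fold for 8 weeks against P6, and the sign turned for 8 weeks against P15 in Hmgcs1 (0.01), Fdft1 (0.66), Sqle (0.13) and Lss (0.38). With the 7 progenitor markers, added after the data were seen, 2 members were called in each comparison of ages, all higher, and 0 past 2-fold. The changes then were, for P15 against P6, Hmgcs1 0.11, Idi1 0.20, Fdft1 0.51, Sqle 0.70, Lss -0.04, Cyp51 0.17 and Srebf2 0.25. For 8 weeks against P15 they were Hmgcs1 0.31, Idi1 0.39, Fdft1 0.96, Sqle 0.47, Lss 0.62, Cyp51 -0.05 and Srebf2 0.09. For 8 weeks against P6 they were Hmgcs1 0.42, Idi1 0.60, Fdft1 1.48, Sqle 1.16, Lss 0.58, Cyp51 0.13 and Srebf2 0.34. With all 35 mice, the ratio of Lss to Srebf2 changed by -0.03 from P6 to 8 weeks in place of 0.01, and 8 of the 10 genes most like the members were shared.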
